A study of Danio rerio with 4 samples.

Results

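The long arm of zebrafish chromosome 4 was taken as every row of the deposited gene table that lies on chromosome 4 and starts at or beyond position 28000000. It held 1644 of the 32520 rows of the table, and the rest of chromosome 4 held 736. The first row of the arm started at 28062473 and the last ended at 78068331, in the coordinates of the GRCz11 build named in the submitters' processing notes. RNA had been taken from the brain of wild-type (WT) zebrafish, in a study of long exposure to butylparaben, an ester of para-hydroxybenzoic acid used as a preservative. The 4 groups were a control given 0.1% DMSO (the solvent dimethyl sulfoxide) and fish exposed to butylparaben at 0.01, 0.1 or 1.0 mg/L. Each group was 1 library, so no difference below has a replicate check and no p-value was computed. The labels name DMSO for the control group, and they state neither the strain or sex of the fish nor how many brains made up a library.

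The long arm of this chromosome is known as the most repeat-rich and the latest replicating stretch of the zebrafish genome, and it is largely heterochromatic. It carries arrays of C2H2 zinc finger genes, whose products bind DNA, together with NLR genes of innate immunity, 5S ribosomal RNA genes, spliceosomal small nuclear RNA genes and the miR-430 cluster, which clears maternal messages from the early embryo. In wild strains it is tied to sex determination. Many of its genes are near copies of each other, so a read can match several rows, and the RSEM program named in the processing notes divides such reads between the rows that they match.

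The libraries had 11099317 counts in control and 10140963, 9907714 and 9750590 counts at 0.01, 0.1 and 1.0 mg/L. Counts were scaled to a library of 1000000 counts (CPM) with TMM factors, which allow for differences in library composition and lay between 0.931 and 1.04. Mitochondrially encoded genes took 29.3% of the counts in control and 32.3, 26.3 and 28.2% at 0.01, 0.1 and 1.0 mg/L. All 10 neuronal markers were above 0 in every library, with summed levels of 8136 CPM in control and 8799, 8945 and 8255 CPM at 0.01, 0.1 and 1.0 mg/L. The 10 markers of radial glia and oligodendrocytes, all above 0 in every library, summed to 12601 CPM in control and 17959, 14834 and 13652 CPM at 0.01, 0.1 and 1.0 mg/L. Most of that sum was mbpa, a myelin gene, with 9044 CPM in control and 14707, 11458 and 10364 CPM at 0.01, 0.1 and 1.0 mg/L, and the part of this list in the results below was not tested. A list of oocyte genes, 30 rows under 29 symbols (zp3.2 stands on more than 1 row) and none on the long arm, summed to 681 CPM in control. At 0.01, 0.1 and 1.0 mg/L the sum was 14.3, 14.1 and 11.7 CPM. All 30 rows were above 0 in control, and 23, 20 and 18 were above 0 at 0.01, 0.1 and 1.0 mg/L. The control library stood apart in these genes, and the part of this in the comparisons with control below was not tested. Comparisons that leave the control out are given beside them. A list of 12 somatic and sex genes of both gonads summed to 12.6 CPM in control and 13.4, 9.12 and 13.0 CPM at 0.01, 0.1 and 1.0 mg/L. Between 8 and 10 of the 12 were above 0 in a library, fshr was at 0 in all 4, and sox9a, which other tissues express too, gave 6.95 CPM of the sum in control and 6.56, 4.66 and 6.49 CPM at 0.01, 0.1 and 1.0 mg/L. The 9 genes of the testis germ line, of which 8 were above 0 in each library, summed to 9.35 CPM in control and 6.67, 7.14 and 10.2 CPM at 0.01, 0.1 and 1.0 mg/L. In a whole brain, fewer cells of a type and less RNA per cell cannot be told apart.

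Most rows of the long arm had few counts or none. Of the 1644, 701 had 0 counts in all 4 libraries, and 943 (57.4%) had at least 1 count, against 82.9% of rows on the rest of chromosome 4. Gene types differed between the 2 parts: 493 rows of the arm were small or ribosomal RNA genes, of which 8 had a count, against 46 such rows on the rest. Of the 888 protein coding rows of the arm, 781 had at least 1 count. A mean of at least 1 CPM over the 4 libraries was reached by 294 long arm genes (17.9%), against 447 genes (60.7%) on the rest of chromosome 4 and 50.8% of all rows. A count of 0 in a library allows a level of up to between 0.267 and 0.318 CPM, at 3 counts, and covers counting error only. The 294 genes above 1 CPM are those counted below, and the 649 rows with counts below that level entered no comparison. Of these 294, 92 had a mean of at least 5 CPM and 21 a mean of at least 20 CPM. Their median level was 2.66 CPM, against 15.0 CPM for the genes kept on the rest of chromosome 4. Per transcript length, the medians of the authors' TPM (transcripts scaled by their length and by the library) were 1.76 on the arm and 8.03 on the rest of the chromosome. Among protein coding rows alone, 270 of the 888 on the arm (30.4%) were kept, against 73.1% of the 587 on the rest of chromosome 4.

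**Figure D1:**
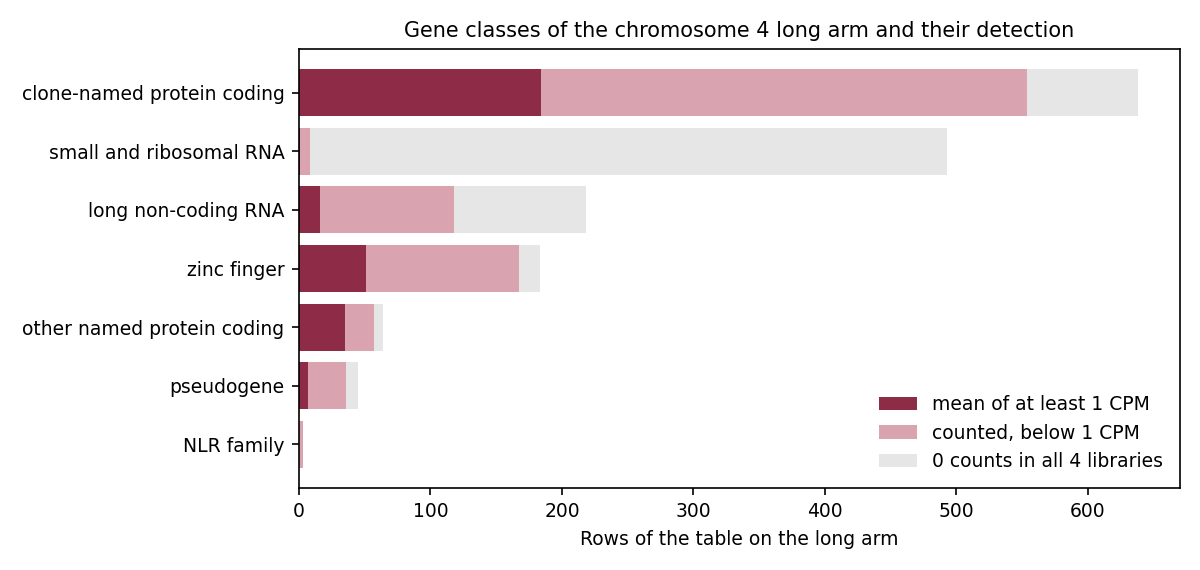
Rows of the chromosome 4 long arm in 7 gene classes (vertical axis) by number of rows (horizontal axis), divided into those with a mean of at least 1 CPM, those counted below that level and those with 0 counts in all 4 libraries. Clone-named protein coding genes hold 184 of the 294 rows kept, and small and ribosomal RNA genes hold 1.

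By class, 638 rows were protein coding genes with a clone or project name in the deposited table (prefixes such as si: and zgc:, or a clone accession), 493 were small or ribosomal RNA genes, 218 were long non-coding RNAs and 183 were zinc finger genes. Classes follow the deposited table, and the separate gene ID list names some rows otherwise. It names the clone-named si:dkey-172k15.4 as a zinc finger gene, so the clone-named class is not free of zinc finger genes. The remaining rows were 64 protein coding genes with an established name, 45 pseudogenes and 3 rows marked as NLR genes. Only a symbol or description put a row in the NLR class, so any NLR gene under a clone name alone counts as clone-named. The zinc finger genes of the arm were 27.8% of the 658 such genes in the table. The rows kept were 184 clone-named genes, 51 zinc finger genes, 35 genes with an established name, 16 long non-coding RNAs, 7 pseudogenes and 1 ribosomal RNA gene. None of the 3 rows in the NLR class reached 1 CPM, which does not cover NLR genes under clone names.

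The small RNA arrays of the arm had no counts. The libraries were made with an mRNA kit, a kind that selects polyadenylated RNA, and its part in this was not tested. All 392 small nuclear RNA rows had 0 counts in every library, of which the gene ID list names 244 as U6 and 148 as U1, both RNA components of the spliceosome. The 59 microRNA rows, of which 54 belong to the miR-430 family between 28.69 and 28.71 Mb, also had 0 counts in every library. The 26 rows named 5S ribosomal RNA had 0 counts as well. Among the ribosomal RNA rows, CT583728.10, named as 5.8S ribosomal RNA, had 143 counts in control and 442, 87 and 96 counts at 0.01, 0.1 and 1.0 mg/L. A second 5.8S row, FO704772.1 on chromosome 7, held the same 4 counts, so these reads cannot be placed on the long arm. BX537263.4 on chromosome 5 also had 143 counts in control, with 0, 174 and 0 at 0.01, 0.1 and 1.0 mg/L. How reads were divided between these rows was not tested.

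The share of each library's counts that fell on the long arm was 0.210% in control (exact binomial 95% interval 0.207 to 0.213%) and 0.233, 0.245 and 0.256% at 0.01, 0.1 and 1.0 mg/L. The intervals at the 3 doses were 0.230 to 0.236%, 0.242 to 0.248% and 0.253 to 0.259%, and they cover counting error only. Both the order of the exposed libraries and their side of the control depended on the total used. With mitochondrial genes left out of the total, the share was 0.297% in control and 0.344, 0.332 and 0.357% at 0.01, 0.1 and 1.0 mg/L. As a share of the authors' TPM it was 1.11% in control and 1.96, 0.934 and 0.738% at 0.01, 0.1 and 1.0 mg/L, so that by TPM the libraries at 0.1 and 1.0 mg/L lay below control, whereas by counts all 3 lay above it. Short rows carried most of that TPM: wu:fi09b08 alone, a row that spans 68563695 to 68563862, had 5934 TPM in control and 12168, 5952 and 3934 TPM at 0.01, 0.1 and 1.0 mg/L. On the rest of chromosome 4 the share of counts was 1.73% in control and 1.56, 1.79 and 1.77% at 0.01, 0.1 and 1.0 mg/L.

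Each exposed library was then compared with the control, gene by gene. A gene was called when its level, as log2(CPM + 0.5), differed by at least 1 (2-fold) between 2 libraries and the exact 95% interval of the ratio of counts excluded 1. At 0.01 mg/L, 38 long arm genes were called higher than in control and 16 lower (54 of 294, 18.4%), against a background of 4.56% of all 16522 genes kept. At 0.1 mg/L the calls were 39 higher and 18 lower (19.4%, against 5.37% of all genes). The library at 1.0 mg/L had 47 higher and 18 lower (22.1%, against 5.42% of all genes). For calls in the higher direction the background was 2.15, 2.43 and 2.68% of all genes at 0.01, 0.1 and 1.0 mg/L, and in the lower direction it was 2.41, 2.95 and 2.74%. On the rest of chromosome 4, 2.01, 3.13 and 2.24% of 447 genes were called at 0.01, 0.1 and 1.0 mg/L. The median log2 ratio of the 294 long arm genes was 0.14, 0.17 and 0.17 at 0.01, 0.1 and 1.0 mg/L, against -0.01, 0.00 and 0.00 for all genes and -0.03, 0.01 and 0.00 on the rest of chromosome 4. The excess of higher over lower calls at 0.01 mg/L depended on the unit: 70.4% of the long arm calls were higher by scaled counts and 54.8% by the authors' TPM, where the median of all genes lay at -0.19.

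**Figure D2:**
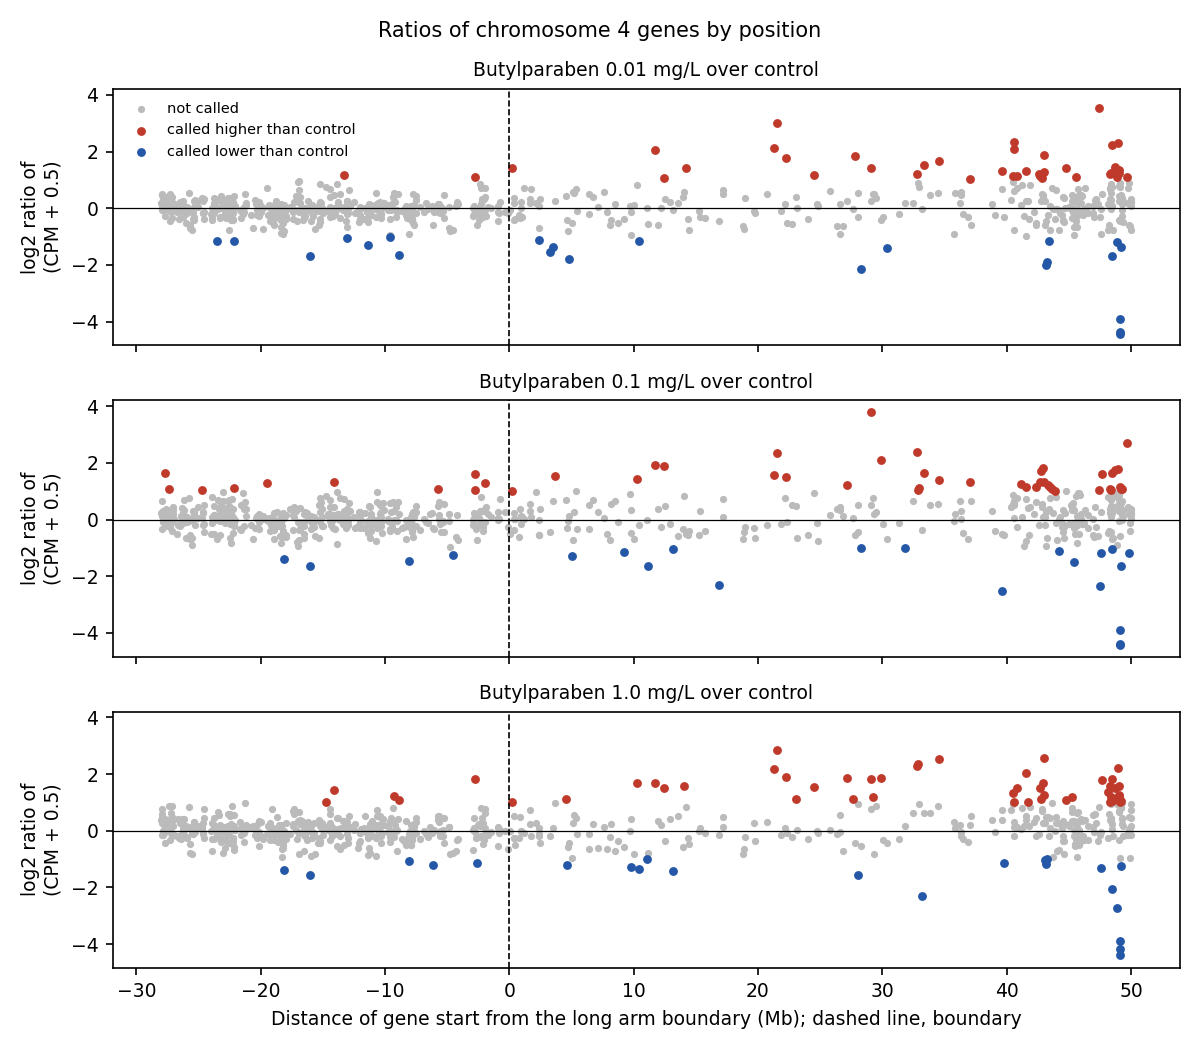
Log2 ratio of (CPM + 0.5) of each gene kept on chromosome 4 (vertical axis) against the distance of its start from the long arm boundary in Mb (horizontal axis), for each dose of butylparaben over control. Genes past the size rule are in red where higher and blue where lower, and to the right of the dashed line they number 54, 57 and 65 at 0.01, 0.1 and 1.0 mg/L.

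The other 24 chromosomes gave a scale for these shares. The chromosome with the largest share called was chromosome 20 at 0.01 mg/L (7.32%), chromosome 22 at 0.1 mg/L (9.03%) and chromosome 9 at 1.0 mg/L (7.46%), each under the share of the long arm in the same comparison. These 3 comparisons share the control library. The comparisons among the exposed libraries do not use it. There too, a larger share of the genes kept was called on the long arm than on any other chromosome. Between 0.1 and 0.01 mg/L, 29 long arm genes were higher at 0.1 mg/L (all genes: 1.71%) and 16 lower (all genes: 1.65%), which is 15.3% in either direction, against 3.35% of all genes and 2.24% on the rest of chromosome 4. Between 1.0 and 0.01 mg/L, 22 were higher at 1.0 mg/L (all genes: 1.85%) and 15 lower (all genes: 1.54%), which is 12.6%, against 3.4% of all genes. Between 1.0 and 0.1 mg/L, 17 were higher at 1.0 mg/L (all genes: 1.91%) and 16 lower (all genes: 1.35%), which is 11.2%, against 3.26% of all genes. Over any pair of exposed libraries, 75 of the 294 genes were called (25.5%), against 7.05% of all genes and 4.03% on the rest of chromosome 4. The range of a gene's log2 level over the 3 exposed libraries had a median of 0.61 on the long arm and 0.34 on the rest of the chromosome.

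**Figure D3:**
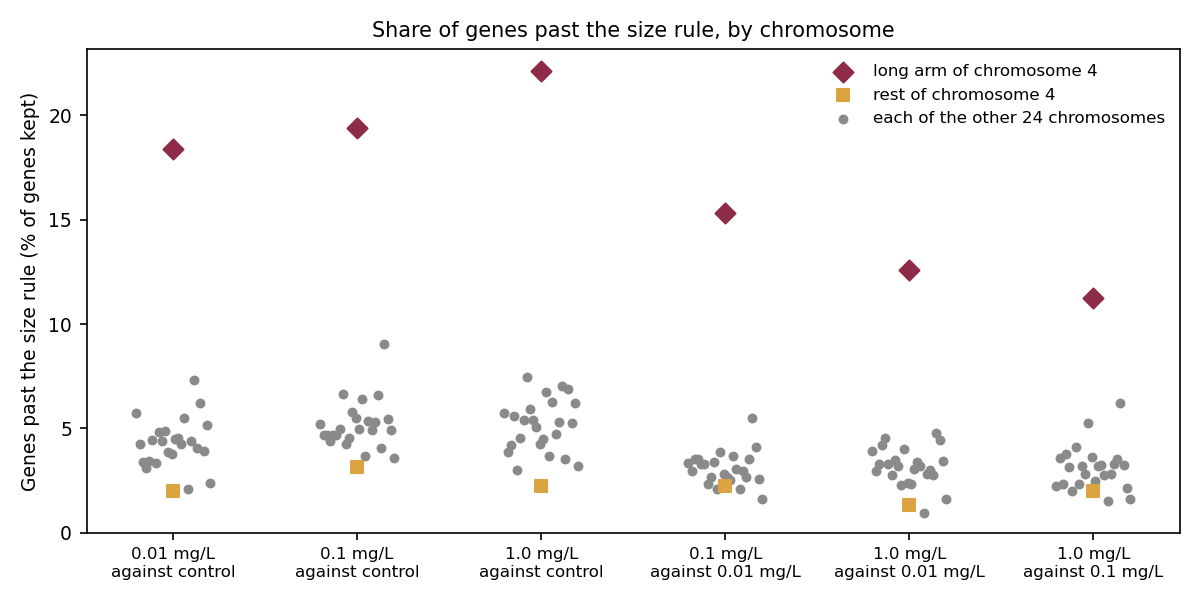
Share of genes past the size rule, in percent of genes kept (vertical axis), in the 6 comparisons of 2 libraries (horizontal axis), for the chromosome 4 long arm, the rest of chromosome 4 and each of the other 24 chromosomes. The long arm lies between 11.2 and 22.1%, above every other point in each comparison.

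Off chromosome 4, the share called at 0.01 mg/L was 12.6% among genes of 1 to 2 CPM and 0.683% among those of at least 20 CPM. Since long arm genes are low, their shares were also taken within ranges of mean level, a division added after the data had been seen. Among genes of 1 to 2 CPM, 14.3% of 112 long arm genes were called at 0.01 mg/L, close to that 12.6%, whereas at 0.1 and 1.0 mg/L the shares were 24.1% in both, against 13.8 and 13.9% off chromosome 4. Among genes of 5 to 20 CPM, 21.1, 11.3 and 19.7% of 71 long arm genes were called at 0.01, 0.1 and 1.0 mg/L, against 2.73, 3.93 and 3.93% off chromosome 4. None of 138 genes in that range on the rest of chromosome 4 was called at any dose. Of the 21 long arm genes of at least 20 CPM, 4, 3 and 3 were called at 0.01, 0.1 and 1.0 mg/L (19.0, 14.3 and 14.3%), against 0.683, 0.717 and 0.867% of genes off chromosome 4. Between exposed libraries the calls lay mostly among the lower genes. For 0.1 over 0.01, 1.0 over 0.01 and 1.0 over 0.1 mg/L, 19.6, 18.8 and 14.3% of the long arm genes of 1 to 2 CPM were called, against 9.10, 9.91 and 10.1% off chromosome 4. At 5 to 20 CPM the shares were 7.04, 5.63 and 9.86%, against 2.03, 2.03 and 1.98% off chromosome 4, and of the 21 genes of at least 20 CPM, 1, 1 and 0 were called.

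**Figure D4:**
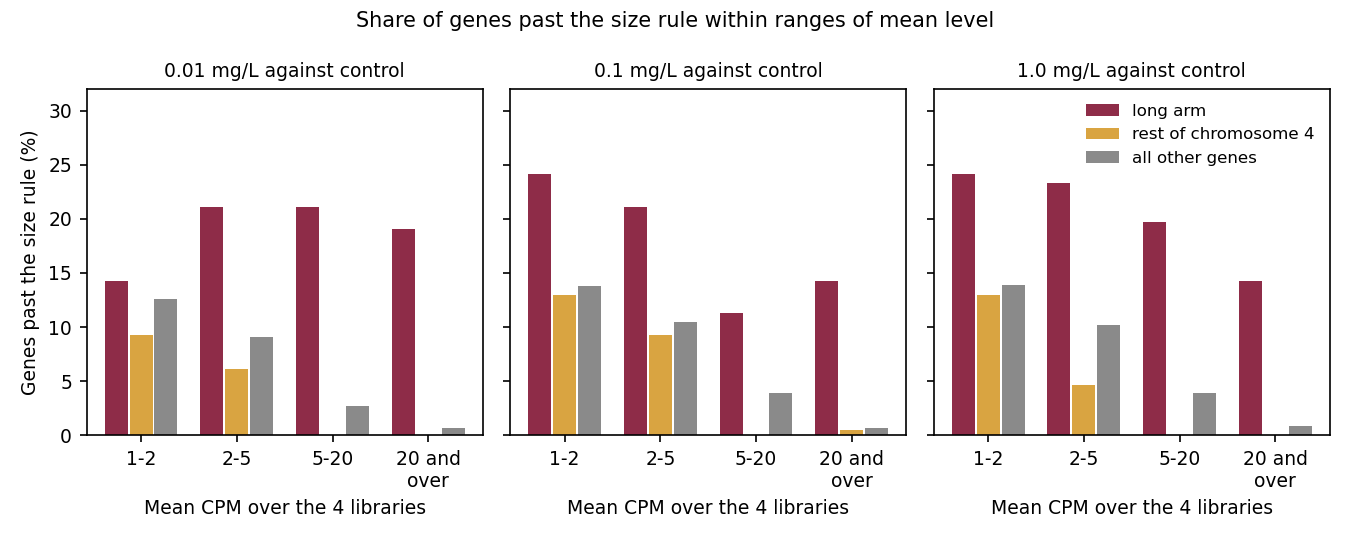
Share of genes past the size rule against control, in percent (vertical axis), within 4 ranges of mean CPM over the 4 libraries (horizontal axis), with 1 panel per dose. Bars of the long arm lie above the others in each range, with the smallest gap at 1 to 2 CPM and 0.01 mg/L (14.3% on the long arm against 12.6% for all other genes).

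Most of the genes kept overlapped another row of the arm or shared their symbol with another row, which is where reads could be divided between rows. Of the 294 genes kept, 96 overlapped another row of the arm on the same strand, 81 on the other strand, and 66 had a symbol that stood on more than 1 row. Those with none of these numbered 110 (37.4%). Among the 105 genes called at any dose (35.7% of 294, against 9.84% of all genes), 29 (27.6%) had none. The kit marks strand, but neither the labels nor the processing notes say whether the counting used it. Among the 110 genes with a symbol of their own and no overlap, 11, 13 and 15 were called higher at 0.01, 0.1 and 1.0 mg/L (10, 11.8 and 13.6%, against 2.15, 2.43 and 2.68% of all genes). The lower calls were 4, 6 and 4 (3.64, 5.45 and 3.64%, against 2.41, 2.95 and 2.74% of all genes). In either direction this was 13.6, 17.3 and 17.3% of the 110, against 18.4, 19.4 and 22.1% of the 294. Read sharing itself was not measured. The 110 genes can also share reads with near copies elsewhere, so its part in the calls was not tested.

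Along the arm, the genes kept lay mainly at its far end: 56 between 68 and 73 Mb and 103 between 73 and 78 Mb. The stretch from 73 to 78 Mb, which holds most of the established names, had 17.5, 19.4 and 23.3% called at 0.01, 0.1 and 1.0 mg/L. Between 68 and 73 Mb the shares were 25.0, 21.4 and 25.0%, and over all genes they were 4.56, 5.37 and 5.42%. Calls were also frequent in stretches with few genes kept. Of 17 genes from 38 to 43 Mb, 23.5, 29.4 and 41.2% were called at 0.01, 0.1 and 1.0 mg/L. In the same order the shares were 28.6, 21.4 and 35.7% of 14 genes from 48 to 53 Mb. From 53 to 58 Mb they were 17.6, 23.5 and 35.3% of 17 genes, and from 58 to 63 Mb 30.8, 46.2 and 30.8% of 13. From 63 to 68 Mb they were 14.3, 14.3 and 7.14% of 14 genes. Calls were fewer in some other stretches. From 33 to 38 Mb there were 0, 2 and 1 calls among 20 genes at 0.01, 0.1 and 1.0 mg/L, from 43 to 48 Mb 0, 1 and 0 among 11 genes, and the stretch from 78 Mb to the end held 2 genes and no call. From 28 to 33 Mb, 5, 2 and 3 of 27 genes were called. At the boundary itself, the 3 rows just outside were tafa5a with 368 counts in control and 359, 550 and 344 at 0.01, 0.1 and 1.0 mg/L, tbc1d22a with 146, 112, 160 and 133 counts in the same order, and cerk with 46, 34, 34 and 25 counts. The 3 rows just inside were gramd4a with 89 counts in control and 71, 54 and 81 at 0.01, 0.1 and 1.0 mg/L, CT583696.1 with 0 in each, and celsr1a, described below. Moving the boundary to 30000000 left 279 genes kept and changed none of the counts of calls by more than 1.5 times.

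The zinc finger genes are the family for which the arm is best known. Of 51 kept, 3, 1 and 3 were higher than control and 2, 1 and 4 lower at 0.01, 0.1 and 1.0 mg/L. In either direction this was 9.80, 3.92 and 13.7%, against 4.56, 5.37 and 5.42% of all genes. The share at 0.1 mg/L rests on 2 of 51 genes and lies near that of all genes. The class leaves out si:dkey-172k15.4, lower at all 3 doses, which only the gene ID list names as a zinc finger gene. Of 385 zinc finger genes kept off chromosome 4, 1.3, 4.16 and 3.38% were called at 0.01, 0.1 and 1.0 mg/L. The difference between the arm and the rest was not tested. The 171 rows with a znf symbol summed to 219 CPM in control and to 215, 206 and 218 CPM at 0.01, 0.1 and 1.0 mg/L, so the summed level of the family differed little between libraries. The rows named znf1015 carried the most counts among them. They have 3 copies between 73.49 and 73.57 Mb and summed to 580 counts in control and 394, 488 and 396 at 0.01, 0.1 and 1.0 mg/L. The 3 rows of znf1009, between 77.05 and 77.16 Mb, summed to 175 counts in control and 279, 288 and 336 counts at 0.01, 0.1 and 1.0 mg/L. The sum of znf1015 was below control at every dose and that of znf1009 above it. Single rows did not all follow the sums: 1 row of znf1015 was called higher at 0.01 mg/L, where 2.15% of all genes were, and none was called lower at any dose. Of the znf1009 rows, 1 was called higher at 0.01 mg/L and 1 at 1.0 mg/L.

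Single zinc finger genes were spread over all patterns. znf994 had 20 counts in control and 5, 15 and 4 at 0.01, 0.1 and 1.0 mg/L, and was called lower at 0.01 and 1.0 mg/L. znf1133 had 34 counts in control and 22, 21 and 7 at 0.01, 0.1 and 1.0 mg/L, and was called lower at 1.0 mg/L. znf1021 (ENSDARG00000114646), a symbol on 2 rows, had 3 counts in control and 16, 19 and 7 at 0.01, 0.1 and 1.0 mg/L, and was called higher at 0.01 and 0.1 mg/L. These 3 genes, like znf1015 and znf1009, were picked as examples after their values had been seen.

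Clone-named protein coding genes held most of the calls. Of 184 kept, 26, 31 and 33 were higher than control and 13, 16 and 12 lower at 0.01, 0.1 and 1.0 mg/L. In either direction this was 21.2, 25.5 and 24.5%, against 4.56, 5.37 and 5.42% of all genes. Off chromosome 4, 9.91, 11.4 and 11.6% of 1997 genes with this kind of name were called at 0.01, 0.1 and 1.0 mg/L. What most of these genes do is not given by the table, so they are described by their values.

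Across all classes, 15 long arm genes were called higher than control at all 3 doses (0.611% of all genes were) and 5 were called lower at all 3 (1.08% of all genes). The highest in level of the first set was si:dkey-240n22.6 (ENSDARG00000089296, 76926059 to 76964360), with 156 counts in control and 672, 490 and 674 counts at 0.01, 0.1 and 1.0 mg/L. Its ratio of CPM to control was 5.12 (95% interval 4.30 to 6.13) at 0.01 mg/L, 3.50 (2.91 to 4.22) at 0.1 mg/L and 4.77 (4.0 to 5.71) at 1.0 mg/L. A second row of the same symbol (ENSDARG00000106998, 76902513 to 76914227) went the other way, with 61 counts in control and 20, 27 and 4 counts at 0.01, 0.1 and 1.0 mg/L. Together the pair had 217 counts in control and 692, 517 and 678 counts at 0.01, 0.1 and 1.0 mg/L, so the exposed libraries were above control in the sum as well.

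si:dkey-159n16.2 (49550966 to 49582758), which overlaps no other row of the arm, had 64 counts in control and 461, 311 and 450 counts at 0.01, 0.1 and 1.0 mg/L. Its ratio to control was 8.56 (6.58 to 11.3), 5.41 (4.12 to 7.20) and 7.76 (5.96 to 10.3) at 0.01, 0.1 and 1.0 mg/L. It stood among the 6 highest ratios at each dose. The symbol si:dkey-28k24.2 stood on 4 rows, of which 2 were kept and both were called higher at every dose. Its row with the most counts (ENSDARG00000110878) had 60 in control and 172, 151 and 335 at 0.01, 0.1 and 1.0 mg/L. The other (ENSDARG00000104787) had 5 counts in control and 15, 19 and 22 at 0.01, 0.1 and 1.0 mg/L. Over all 4 rows the sum was 75 counts in control and 195, 190 and 386 at 0.01, 0.1 and 1.0 mg/L.

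**Figure D5:**
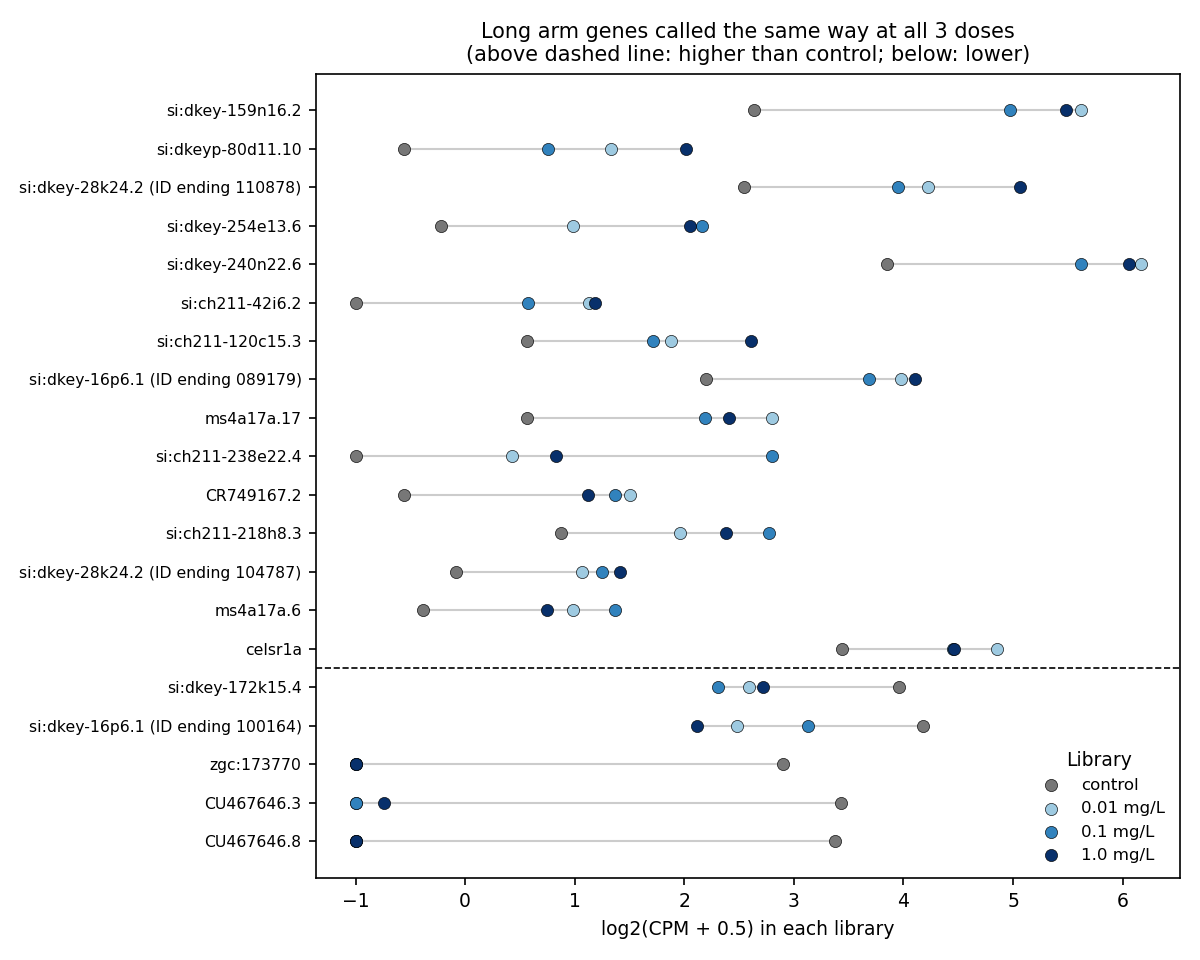
Level of the 20 long arm genes past the size rule in the same direction at all 3 doses, as log2(CPM + 0.5) in each of the 4 libraries (horizontal axis), 1 gene per line. Of these, 15 lie above the dashed line with the control lowest and 5 below it with the control highest, and points of equal value cover each other.

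Some rows with near-zero control counts gave large ratios with wide intervals. CR749167.2 had 2 counts in control and 22, 21 and 17 at 0.01, 0.1 and 1.0 mg/L, a ratio of 13.1 (3.21 to 115), 11.7 (2.86 to 103) and 9.38 (2.23 to 83.7). si:dkeyp-80d11.10 had 2 counts in control and 19, 12 and 36 at 0.01, 0.1 and 1.0 mg/L. si:ch211-42i6.2 had 0 counts in control and 16, 10 and 18 at 0.01, 0.1 and 1.0 mg/L, which is at least 6.34-fold, 3.71-fold and 6.62-fold higher against a floor of 3 counts in the control library. The control was the lowest library in each of these genes, as their choice by calls higher at all 3 doses requires. The clone-named gene ENSDARG00000094500 (57101749 to 57102859) also had 0 counts in control, with 8, 65 and 13 at 0.01, 0.1 and 1.0 mg/L, so it was at least 3.17-fold, 24.1-fold and 4.78-fold higher. si:ch211-218h8.3 (15 counts in control and 32, 64 and 48 at 0.01, 0.1 and 1.0 mg/L) and si:dkey-254e13.6 (4 in control and 14, 40 and 37) were highest at 0.1 mg/L. si:ch211-120c15.3 was highest at 1.0 mg/L, with 11 counts in control and 30, 28 and 57 at 0.01, 0.1 and 1.0 mg/L.

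Rows that share 1 deposited symbol did not move alike, and they need not be copies of 1 gene. si:dkey-16p6.1 stood on 19 rows between 31.65 and 76.44 Mb, of which 10 were kept. One of them (ENSDARG00000089179), which the gene ID list names si:dkey-156k2.1, was called higher at all 3 doses. It had 46 counts in control and 144, 125 and 170 at 0.01, 0.1 and 1.0 mg/L. Another (ENSDARG00000100164) was called lower at all 3, with 197 counts in control and 48, 83 and 39 at 0.01, 0.1 and 1.0 mg/L. Over the 19 rows the sum was 637 counts in control and 429, 628 and 570 at 0.01, 0.1 and 1.0 mg/L, or 56.7 CPM in control and 45.4, 62.3 and 56.1 CPM at 0.01, 0.1 and 1.0 mg/L. The summed level thus lay close to control at 0.1 and 1.0 mg/L although single rows differed several-fold.

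Of the 5 genes lower at all 3 doses, 3 lie side by side between 77113391 and 77140170 and had counts almost only in the control library. These 3 reached a mean of 1 CPM through the control alone, so their lower calls follow from how they were kept. They are among the lower calls counted above at each dose. CU467646.3 had 115 counts in control and 0, 0 and 1 at 0.01, 0.1 and 1.0 mg/L. CU467646.8 had 111 counts in control and zgc:173770 had 78, and both had 0 at every dose. Against a floor of 3 counts in each exposed library, CU467646.8 was at least 31.1-fold lower at 0.01 mg/L, 33.2-fold at 0.1 mg/L and 33.5-fold at 1.0 mg/L. zgc:173770 was at least 21.9-fold, 23.4-fold and 23.6-fold lower. The last 2 overlap each other on the same strand, so their reads cannot be told apart, and the oocyte list given above, at 11.7 to 14.3 CPM in the exposed libraries against 681 CPM in control, moved the same way. The part of oocyte RNA in these 3 genes was not tested. The fifth gene, si:dkey-172k15.4 (77218965 to 77228234), had 169 counts in control and 52, 45 and 62 at 0.01, 0.1 and 1.0 mg/L, and was 2.73-fold, 3.37-fold and 2.47-fold lower. The gene ID list names it as a zinc finger gene.

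Other genes were furthest from control in 1 library. si:ch211-266c8.1 (ENSDARG00000103844) had 10 counts in control and 146, 24 and 20 at 0.01, 0.1 and 1.0 mg/L, the largest log2 ratio of the arm at 0.01 mg/L (3.52). wu:fi09b08 had 396 counts in control and 1432, 566 and 394 at 0.01, 0.1 and 1.0 mg/L, and its neighbour BX548011.2 had 33 in control and 158, 47 and 38. The 0.01 mg/L library was the highest in both, as it was for the 5.8S ribosomal RNA row. Most small and ribosomal RNA genes kept off chromosome 4 moved the same way. Of 19, 12 were called higher and 1 lower at 0.01 mg/L than in control (all genes: 2.15 and 2.41%). At 1.0 mg/L, 14 were called lower than at 0.01 mg/L (1.54% of all genes). This class takes in mitochondrial ribosomal and transfer RNA genes, and also FO704772.1, whose counts repeat those of the long arm 5.8S row. These genes are thus not independent of that row, and their part in the 3 long arm rows was not tested. zgc:174275 was lowest in that library, with 35 counts in control and 3, 13 and 20 at 0.01, 0.1 and 1.0 mg/L. CT737123.1, a processed transcript (60 in control and 9, 26 and 21), and si:ch211-205a14.1 (90 in control and 17, 49 and 38) were also lowest there.

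At 0.1 mg/L, the antisense RNA BX649307.1 was lowest, with 39 counts in control and 23, 3 and 31 at 0.01, 0.1 and 1.0 mg/L, and so was si:dkey-71l4.4, with 29 in control and 19, 1 and 23. AL935186.1 was highest in the same library, with 3 counts in control and 11, 45 and 2 at 0.01, 0.1 and 1.0 mg/L. zgc:174314 had 5 counts in control and 2, 36 and 30 at 0.01, 0.1 and 1.0 mg/L, so that the 2 higher doses stood together. At 1.0 mg/L, si:dkey-196n19.2 was the highest, with 21 counts in control and 37, 44 and 117 at 0.01, 0.1 and 1.0 mg/L. si:dkey-9p20.18 had no counts at that dose, with 22 in control and 18, 14 and 0 at 0.01, 0.1 and 1.0 mg/L, which is at least 6.64-fold lower than control. BX088712.6 was called in opposite directions at 2 doses, with 27 counts in control and 63, 0 and 44 at 0.01, 0.1 and 1.0 mg/L.

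Of the 35 genes with established names kept, 6, 4 and 8 were higher than control at 0.01, 0.1 and 1.0 mg/L (all genes: 2.15, 2.43 and 2.68%). By the same size rule, 0 were lower at any dose (all genes: 2.41, 2.95 and 2.74%). Among 12918 such genes off chromosome 4, 1.32, 1.46 and 1.78% were called higher and 1.90, 2.41 and 2.17% lower. At such shares few lower calls fall among 35 genes, so their absence cannot show a direction. celsr1a (28190013 to 28335184), an atypical cadherin of the planar cell polarity pathway, had 116 counts in control and 269, 216 and 219 at 0.01, 0.1 and 1.0 mg/L. Its ratio to control was 2.76 (2.21 to 3.46), 2.07 (1.65 to 2.62) and 2.08 (1.66 to 2.63) at 0.01, 0.1 and 1.0 mg/L. With libraries thinned to equal depth its log2 ratio was 0.94 at both 0.1 and 1.0 mg/L, short of the size rule. That all 3 exposed libraries stood above the control follows from its choice as a gene called higher at all 3 doses.

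The ms4a genes encode proteins that cross the membrane several times and are known in mammals from B cells, mast cells and microglia. They had 15 rows between 76.49 and 76.79 Mb, of which 4 were kept. ms4a17a.17 had 11 counts in control and 61, 41 and 49 at 0.01, 0.1 and 1.0 mg/L, a ratio of 6.59 (3.44 to 13.9), 4.15 (2.09 to 8.95) and 4.92 (2.52 to 10.5). ms4a17a.6 had 3 counts in control and 14, 21 and 12 at 0.01, 0.1 and 1.0 mg/L. ms4a17a.10 had 9 in control and 29, 18 and 33, called higher at 0.01 and 1.0 mg/L. The other kept gene, ms4a17a.11, had 28 counts in control and 12, 14 and 22 at 0.01, 0.1 and 1.0 mg/L and was not called. The 15 rows together had 63 counts in control and 131, 108 and 145 at 0.01, 0.1 and 1.0 mg/L, or 5.61 CPM in control and 13.9, 10.7 and 14.3 CPM.

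Among other named genes, psmb10, a catalytic subunit of the immunoproteasome, had 100 counts in control and 116, 193 and 191 at 0.01, 0.1 and 1.0 mg/L, and was called higher at 0.1 and 1.0 mg/L. myrfl, a relative of the myelin regulatory factor, had 32 in control and 79, 62 and 67, called higher at 0.01 and 1.0 mg/L. trpm2 (ENSDARG00000095696, a symbol on 2 rows), a calcium-permeable cation channel, had 7 in control and 22, 9 and 29, called at the same doses. ftr51, a finTRIM gene of the fish-expanded TRIM family, had 67 in control and 97, 78 and 130, called higher at 1.0 mg/L. These 4 genes and the ms4a genes other than ms4a17a.17 and ms4a17a.6 were named after their values had been seen.

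Of the 8 genes of highest level on the arm, 1 was called, wu:fi09b08, described above. The row of cct2 with most counts (ENSDARG00000104674), a subunit of the cytosolic chaperonin, had 113 CPM in control and 120, 139 and 126 CPM at 0.01, 0.1 and 1.0 mg/L. rab3ip, an exchange factor for the small GTPase Rab8, had 63.9 CPM in control and 64.7, 75.1 and 74.8 CPM. nup50, a nuclear pore protein, had 56.3 CPM in control and 50.1, 56.9 and 61.2 CPM, and ptprr, a receptor-type tyrosine phosphatase, had 57.5 CPM in control and 55.8, 53.3 and 45.2 CPM. The long intergenic RNA CABZ01117780.1 had 77.8 CPM in control and 82.6, 87.6 and 61.6 CPM at 0.01, 0.1 and 1.0 mg/L. The protein coding gene CABZ01066312.1 had 51.7 CPM in control and 62.9, 71.3 and 79.1 CPM. arfgap3, an activator of GTP hydrolysis by Arf proteins at the Golgi, was lower, at 78.7 CPM in control and 50.6, 59.3 and 40.2 CPM at 0.01, 0.1 and 1.0 mg/L, and its ratio at 1.0 mg/L was 0.511 (0.453 to 0.575). That log2 ratio of -0.96 stayed inside the size rule, and the gene overlaps another row on the same strand.

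The authors' deposited table carries its own mark of differing genes, by a test that neither the labels nor the table names. It marked 107, 105 and 120 of the 1644 long arm rows at 0.01, 0.1 and 1.0 mg/L (6.51, 6.39 and 7.30%), against a background of 3.96, 4.28 and 4.29% of all 32520 rows. On the rest of chromosome 4 the same table marked 18, 25 and 29 of 736 rows (2.45, 3.40 and 3.94%). Of the marked long arm rows, the authors' deposited table gave 60, 57 and 69 as higher than control and 47, 48 and 51 as lower at 0.01, 0.1 and 1.0 mg/L. Most marked rows, on the long arm as among all rows, had no q-value under 0.05 in that table. The table starts from all rows, including those below 1 CPM, and its share for the long arm is therefore not on the same base as the shares of the 294 genes above.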

How the data were processed

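RNA-seq of 4 brain libraries, 1 per group, was analysed from 1 deposited gene table. Per the labels' protocols, libraries were made with a stranded mRNA kit for 151 bp paired ends. The submitters' processing notes name cutadapt 2.8, STAR 2.7.1a, RSEM 1.3.1 and the GRCz11 build. The deposited expected counts are whole numbers, so the authors had rounded RSEM's estimates. The authors also deposited TPM per row, used here for levels per length and as an alternative, and RPKM, which were read but not compared. The authors deposited log2 ratios, p-values and q-values of each dose over control. These were used only through their mark of differing genes, its direction and the q-values set beside it.

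TMM factors were taken with edgeR 4.0.16 in R 4.3.3, and DESeq2 1.42.0 gave alternative size factors. No count test was run, since 1 library per group leaves no spread to test against. Genes that averaged 1 CPM or more over the 4 libraries were kept, and log2(CPM + 0.5) was compared, so ratios of low genes are understated. A call needed a log2 difference of at least 1 and an exact 95% interval (Clopper-Pearson, conditional on both counts) that excludes 1. Intervals cover counting error only. The rule was tested on simulated data.

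Named genes were those called alike at all 3 doses, the 6 highest and 6 lowest called per dose, the 8 of highest level, those at 0 in a library and at 30 or more in another, and the 3 rows on each side of the boundary. Classes were set by symbol, description and gene type. Members and lists were chosen with earlier results of these data known. The alternatives were other scalings, filters, pseudocounts, thinning to the smallest library, TPM, another boundary, and protein coding genes only.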

Additional observations from a re-analysis of the deposited data

Results flagged for a closer look

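BX088712.6, a clone-named protein coding gene of the long arm (67588046 to 67589158), was on opposite sides of the control at different doses. It had 27 counts in control and 63, 0 and 44 counts at 0.01, 0.1 and 1.0 mg/L. Its ratio to control was 2.77 at 0.01 mg/L (95% interval 1.74 to 4.53). At 0.1 mg/L it was at least 8.08-fold lower against a floor of 3 counts, and at 1.0 mg/L the ratio was 1.80 (1.09 to 3.02). Each dose is 1 library, so the difference between doses was not tested.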

How the results depend on the processing

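No paired analysis was possible because each group is 1 library. Of 160 recomputed values of the main results, 96 stayed close to the reported value (within 1.5 times for a count), 62 moved and 2 reversed, both of them shares of the library by TPM. Shares of rows past another filter were counted as moved whatever their value. Shares of a library's counts were judged by their narrow counting interval, so a change of the total alone moves them. DESeq2 size factors, library totals, a pseudocount of 0.1 CPM, thinning, protein coding genes only and TMM over genes kept (added after the data were seen) moved none of the counts of calls by more than 1.5 times. Counts below are given at 0.01, 0.1 and 1.0 mg/L against control. With every row that had a count (943), 68 and 65 were higher at 0.01 and 0.1 mg/L, 48, 48 and 52 were lower, and the medians were 0.00, 0.0245 and 0.0225. With a mean of at least 5 CPM (92 genes), 15, 8 and 15 were higher and 4, 3 and 2 lower. With a pseudocount of 2 CPM, 16, 14 and 17 were higher and 9, 7 and 6 lower. Without mitochondrial genes (385 genes kept), 29, 28 and 31 were lower. With the authors' TPM (238 genes), 17 were higher at 0.01 mg/L, where the median was 0.00 and that of all genes -0.19, and 10 were lower at 0.1 mg/L. In either direction 13.0, 15.1 and 20.6% were called by TPM, against 4.05, 4.72 and 4.79% of all genes. With library totals, the median of all genes at 0.01 mg/L was -0.12 and that of the long arm 0.04. Members with a symbol of their own and no overlap (110, added after the data were seen) gave 11, 13 and 15 higher and 4, 6 and 4 lower. The stricter filter and the 110 hold fewer genes, but in most comparisons the share called was lower there too. At 5 CPM the share of all genes called was also lower than in the main setting. Between 0.1 and 0.01 mg/L the share on the long arm was 15.3% of the 294, 6.52% at 5 CPM and 9.09% among the 110. At 0.01 mg/L against control it was instead higher at 5 CPM (20.7%, against 18.4% of the 294). For 1.0 over 0.01 mg/L it was 12.7% among the 110, against 12.6% of the 294. The cause of the changes under these and the other settings was not tested. Between doses (0.1 over 0.01, 1.0 over 0.01 and 1.0 over 0.1 mg/L; all added), the calls were 71, 59 and 53 without mitochondrial genes, 93, 77 and 71 with any count, 6, 5 and 7 at 5 CPM, 14, 7 and 8 with a pseudocount of 2 CPM, and 10, 14 and 9 among the 110, with 21 for the last pair by TPM. Over all genes kept under the same settings, the shares called between doses were 4.28, 4.56 and 4.21% without mitochondrial genes and 3.70, 3.70 and 3.67% with any count. They were 1.31, 1.21 and 1.18% at 5 CPM, and 1.05, 1.00 and 0.908% with a pseudocount of 2 CPM. The 110 limit the long arm alone, so all genes of the main setting stand beside them (3.35, 3.4 and 3.26%). On the long arm the shares, in this order of settings, were 18.4, 15.3 and 13.8%, 9.86, 8.17 and 7.53%, 6.52, 5.43 and 7.61%, 4.76, 2.38 and 2.72%, and 9.09, 12.7 and 8.18%. In each of the 6 comparisons, the long arm share called was above that of all genes beside it in all 14 settings run. Like the 110, the settings with protein coding genes only and with another boundary limit the long arm alone. All genes of the main setting, of every gene type, stand beside those as well. The share on the arm itself ranged over 8.50 to 20.7%, 7.14 to 22.1% and 7.82 to 27.2% against control, and over 4.76 to 18.4%, 2.38 to 15.6% and 2.72 to 13.8% between doses.

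The share of counts on the arm, in control and at 0.01, 0.1 and 1.0 mg/L, was 0.297, 0.344, 0.332 and 0.357% without mitochondrial genes, 0.202, 0.224, 0.236 and 0.247% with the boundary at 30000000, and 1.11, 1.96, 0.934 and 0.738% of the authors' TPM, which turns the difference from control at 0.1 and 1.0 mg/L. Rows at 5 CPM were 5.60% of the arm and 44.6% of the rest of chromosome 4, and rows with any count 57.4 and 82.9%. For the 41 named genes, 1230 values gave 1099 with the same call, 129 that lost it, 2 that gained it and 0 reversed. A gene not called under either setting counts as the same call. The 2 filters leave the ratios unchanged: with any count no call could be lost, and the 58 losses at 5 CPM are genes below that level. Of the other losses, 33 came with TPM and 32 with a pseudocount of 2 CPM. At 9750590 to 11099317 counts per library, a gene of 1 CPM rests on few counts.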
